A study of Mus musculus with 2 samples.

Results

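RAB GTPases, SNARE proteins and synaptotagmins are the machinery that moves and fuses membrane vesicles inside cells. They were examined in sorted mouse lung epithelium after smoke or air exposure. The set comprised every gene of the deposited value table whose symbol begins with Rab, Stx (syntaxin), Vamp, Snap or Syt (synaptotagmin) followed by a digit. It held 106 genes out of 19505 genes with a symbol, each read by 1 probe: 65 with the Rab stem, 13 syntaxins, 7 Vamp genes, 5 Snap genes and 16 synaptotagmins. The symbols also took in 9 genes that encode RAB effectors, regulators or interactors rather than GTPases, such as Rab3gap1 and Rab11fip2. They took in Snap91, a clathrin assembly protein and not a SNARE, as well. Further mouse genes with such symbols, 8 in all, were not analysed here, among them Stx5a, Rab4b and Syt5.

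The lung cells had been sorted as positive for an SPC/GFP reporter and for EpCAM. SPC, surfactant protein C, marks alveolar type 2 cells, and EpCAM marks epithelium. The control mice breathed air and the exposed mice smoke, both for 3 months. Each was hybridised to 1 Clariom S Mouse array. Strain, age, sex, the reporter construct, the smoke dose and the number of animals in each sample are not stated in the labels. Because each exposure is represented by 1 array, no p-value or SD can be given, and a difference sets these 2 arrays, rather than the exposures, against each other.

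A RAB is a small GTPase that marks a membrane compartment in its GTP-bound form and recruits effectors such as motors and tethers. Vesicle fusion follows when a SNARE on the vesicle, often a VAMP, zips together with syntaxins and SNAP-type SNAREs on the target membrane. Several synaptotagmins couple fusion to calcium. Alveolar type 2 cells use this machinery to build lamellar bodies, which are lysosome-related organelles filled with surfactant, and to release them at the apical surface.

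The deposited values are taken as log2 signals, so a difference of 1 is 2-fold on the deposited scale. A level filter, the median of all values (4.57), had to be reached on the brighter array. Of the 106 genes, 75 passed it and 31 lay below it on both arrays, and of the 75 only Rab7b passed through 1 array alone (4.07 for air and 4.61 for smoke). None was at the upper limit of the scale, 19.93. Differences are set beside a robust SD, the spread of the differences among genes at a like mean level, which ran from 0.30 to 0.50 across 10 level bins. It holds both noise and real differences, is not the error of any single gene's difference, and does not replace replicates.

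The sort was checked on markers. Of 8 alveolar type 2 markers, 5 stood at the upper limit on both arrays, Sftpc among them, and the other 3 differed by 0.00 to 0.15. A value at the limit on both arrays cannot show a change. The club cell marker Scgb1a1 also stood at the limit on both arrays, so these values do not show a sort free of club cells. Of the other club markers, Cyp2f2 was lower (-0.33) and Scgb3a2 higher (0.6). All 6 endothelial markers were lower in smoke, with a median log2 difference of -0.82, and all were above the filter on both arrays. Of 4 neutrophil markers 3 were higher, with a median of 0.44. Of 5 alveolar type 1 markers 4 were lower and Ager was higher, with a median of -0.23. Of 5 neuroendocrine markers, which matter here because neuroendocrine cells use the neuronal SNAREs, only Syp was above the filter (5.11 for air and 4.68 for smoke). Both ciliated markers measured were lower (Tppp3 by -1.44 and Dnah5 by -0.63 on the log2 scale), as were all 4 epithelial markers, with Krt8 at -1.11 and the other 3 between -0.17 and -0.06. Lymphocyte, macrophage, fibroblast and platelet markers above the filter had median log2 differences of 0.09, -0.19, 0.165 and -0.39. Cd3d (lymphocyte, 1.03) and Pf4 (platelet, 1.1) were past 2-fold higher and reached the filter only on the smoke array. Col1a1 (fibroblast, -1.18) was past 2-fold lower. The part of these cell types in the differences given here was not tested. Less RNA per cell and fewer cells of a type cannot be told apart in sorted bulk samples.

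The vesicle machinery as a whole differed little between the arrays. The 75 genes above the filter had a median log2 difference, smoke minus air, of 0.08, beside 0.06 over all 10419 genes above it. Only Rab5b and Syt7 were at least 2-fold higher in smoke, which is 2 of 75, where 3.94% of all genes were. At least 2-fold lower were 0 of 75, where 2.48% of all genes were. At the lower bar of 1.5-fold, 13 were higher and 4 lower, beside 14.5% and 9.19% of all genes. The share on the higher side, 17.3% of the 75, was thus near that of all genes, and the share on the lower side, 5.33%, was smaller. The direction depended on scaling: 46 of the 75 were higher and 28 lower as deposited (54.3% and 44.7% of all genes), but 37 and 37 after quantile normalization. The 1.5-fold counts became 10 higher and 8 lower in the same way. These are 13.3% and 10.7% of the members beside 12.1% and 11.5% of all genes. The members' share on the lower side was thus still below that of all genes, but close to it. With the offset 3 were lower (4%, beside 5.77% of all genes), and with centring 6 were (8%, beside 10.99%).

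The genes that differed most were spread over several compartments. Only 4 of the 75, Rab5b, Syt7, Rab11a and Rab27b, lay more than 2 robust SD from the median of genes of like level, which is 5.33%, where 7.72% of all genes did.

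**Figure D1:**
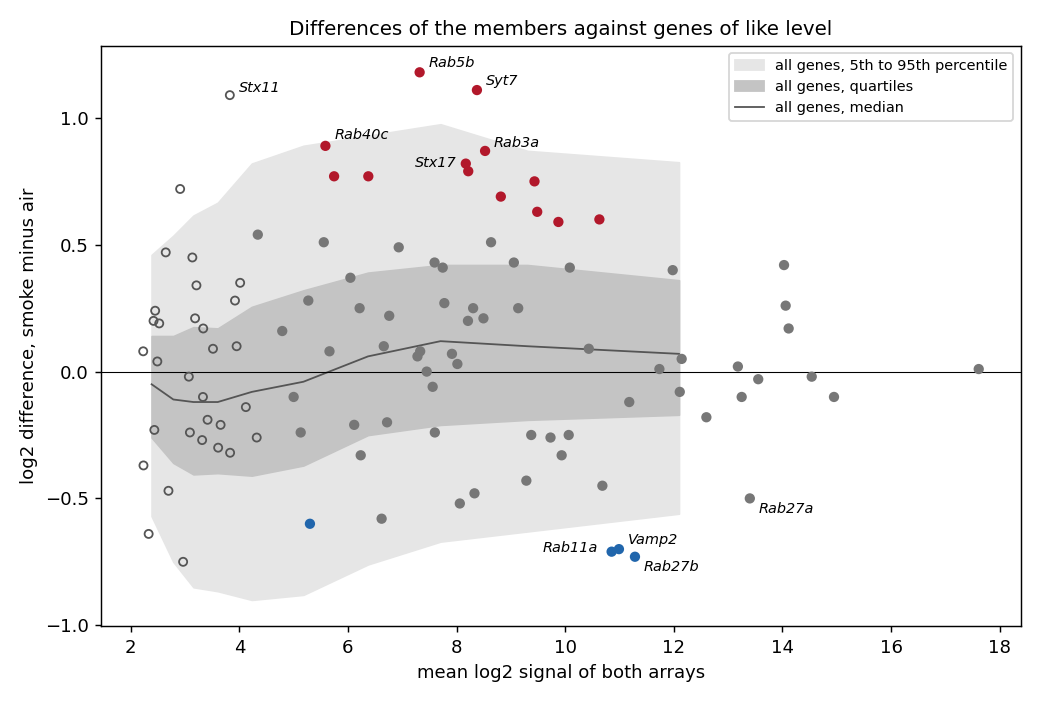
Log2 difference (smoke minus air) of each RAB, SNARE and synaptotagmin gene against its mean log2 signal on both arrays; filled points are above the level filter, red and blue past 1.5-fold, and open points are below the filter. Grey bands give the quartiles and the 5th to 95th percentiles of all genes in 10 level bins; Rab5b and Syt7 lie above the outer band, Rab27b, Rab11a and Vamp2 below it.

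Level-matched genes served as the background in 4 classes of mean level that hold equal numbers of genes. In the brightest class (mean level 9.64 to 19.91), 27 members had a median difference of -0.03, beside 0.09 for all genes of that level. There 12 of 27 were higher (44.4%), beside 57.9% of all genes, and 3 were at least 1.5-fold lower (11.1%, beside 4.84% of all genes). In the next class down (7.43 to 9.64) the 25 members leaned the other way, with a median of 0.25 beside 0.09, and 7 of 25 were at least 1.5-fold higher (28.0%, beside 15.9% of all genes). The 13 members of the class below it had a median of 0.10 beside 0.08, and the 10 of the dimmest had 0.22 beside -0.07. The members' medians thus followed no steady order with level, and only in the brightest class did the median lie below that of genes of like level. The classes hold 10 to 27 members, and in each the quartile ranges of members and all genes overlapped.

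Rab5b, an early endosome RAB that acts in uptake and endosome fusion, had the largest difference of the set. Its signal was 6.73 for air and 7.91 for smoke, a log2 difference of 1.18, or 2.27-fold, against a robust SD of 0.47. Its close relatives had smaller differences: Rab5a was at 13.57 and 13.54, and Rab5c was at 9.01 and 9.26. Differences among the 3 RAB5 genes therefore spanned 1.21. Among the other early endosome RABs, Rab21 was at 11.78 for air and 12.18 for smoke. Rab17, an epithelial RAB of transcytosis, went the other way, from 5.60 in air to 5.00 in smoke, a difference of -0.60 that shrank to -0.43 with an offset of 16 added on the linear scale. The 8 early endosome RABs, all above the filter, had a median of 0.14, with 5 higher, 2 lower and Rab22a equal at 7.45.

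The RABs of regulated secretion differed in both directions. RAB27A and RAB27B, which dock secretory granules and lysosome-related organelles at the plasma membrane, were both lower in smoke. Rab27b was at 11.65 for air and 10.92 for smoke, a log2 difference of -0.73 against a robust SD of 0.39. Rab27a was at 13.65 and 13.15, a difference of -0.50, short of 1.5-fold as deposited and past it under quantile normalization (-0.62). Rab3a, best known from synaptic vesicles, was on the higher side, at 8.09 and 8.96 (0.87, or 1.83-fold). Rab3d, the secretory granule RAB of exocrine cells and type 2 cells, was at 6.65 and 6.87, and Rab3c was at 7.25 and 7.31. Rab3b, Rab26 and Rab37 were below the filter on both arrays. The 5 members above the filter had a median of 0.06, whose sign turned under quantile normalization (-0.02) and centring by level (-0.06).

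Rab3gap1 and Rab3gap2, the catalytic and regulatory subunits of the GTPase-activating complex for RAB3, were both lower, at 8.32 and 7.80 and at 6.91 and 6.33. Rab3ip (Rabin8), an exchange factor that activates RAB8, was higher, at 9.06 for air and 9.81 for smoke, a difference of 0.75. It was the only 1 of 7 effectors and regulators above the filter that was higher, and the group's median was -0.26. The other 6 were lower, with differences from -0.58 to -0.10, where 44.7% of all genes were lower. Among them, Rab11fip2, Rab11fip1 and Rab11fip3, effectors of RAB11 in recycling endosomes, had log2 differences of -0.45, -0.26 and -0.25. No member of the group was past 1.5-fold on the lower side as deposited, but Rab3gap1 and Rab3gap2 were under quantile normalization (-0.63 and -0.68) and centring (-0.64 for both).

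Rab11a, the RAB of recycling endosomes that carries cargo to the apical membrane, was at 11.21 for air and 10.50 for smoke, a difference of -0.71 (1.64-fold lower, robust SD 0.39). Its paralog Rab11b was at 14.03 and 14.20, and the epithelial member Rab25 at 11.24 and 11.12. The remaining recycling and exocytic RABs were within 1.5-fold: Rab14, which works between the Golgi and endosomes, was at 12.12 and 12.17, and the sign of its difference, 0.05, turned under quantile normalization (-0.12) and under centring by level (-0.02). Rab8a (0.01), Rab10 (-0.08) and Rab13 (0.03) had log2 differences near 0, and Rab35, of a fast recycling route, had the largest on the higher side, 0.51. The 11 genes had a median of 0.03 as deposited, with 7 higher and 4 lower, and of -0.12 under quantile normalization and -0.06 under centring.

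The RABs of lamellar-body-like organelles differed little. Rab38, which with RAB32 sorts cargo into lysosome-related organelles, was at 7.64 for air and 7.91 for smoke. Rab32 was below the filter, at 3.76 and 3.46. Rab29, a relative of both, was at 5.05 and 4.95. All 3 differences were smaller than the robust SD of genes of like level.

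Among late endosome and lysosome RABs, Rab34, Rab24 and Rab12 were past 1.5-fold on the higher side as deposited. That is 3 of 6 above the filter, where 14.5% of all genes were. The 6 members above the filter had a median difference of 0.57, and 0.45 to 0.57 under quantile normalization, centring by level or the offset. Rab34, which acts in lysosome positioning and cilium formation, was at 7.82 for air and 8.61 for smoke (0.79). Rab24, linked to autophagy, was at 5.99 and 6.76 (0.77). Rab12, which acts in delivery of receptors to lysosomes, was at 10.33 and 10.93, a difference of 0.60. It fell short of 1.5-fold under quantile normalization (0.505) and centring (0.53). Rab7b, which is among the 6 only through its smoke signal, was at 4.07 and 4.61. Other members were nearly equal: Rab7, the main RAB of late endosomes, was at 17.61 and 17.62, and Rab9, of transport from late endosomes to the Golgi, was at 14.55 and 14.53. The sign of the Rab7 difference turned under quantile normalization and under centring.

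Most RABs of the endoplasmic reticulum and Golgi were close to equal. Rab1a, needed for transport from the endoplasmic reticulum to the Golgi, was at 13.17 for air and 13.19 for smoke, and Rab6a, of Golgi traffic, was at 12.69 and 12.51. Rab2a and Rab2b were both slightly higher, by 0.26 and 0.37. Rab43, a Golgi RAB, had the largest difference of the 8 members above the filter, at 5.36 and 6.13 (0.77, and 0.59 with the offset). Among RABs outside these groups, Rab40c, which recruits a ubiquitin ligase, was at 5.14 and 6.03 (0.89, and 0.67 with the offset), while its paralog Rab40b was at 5.25 and 5.01.

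**Figure D2:**
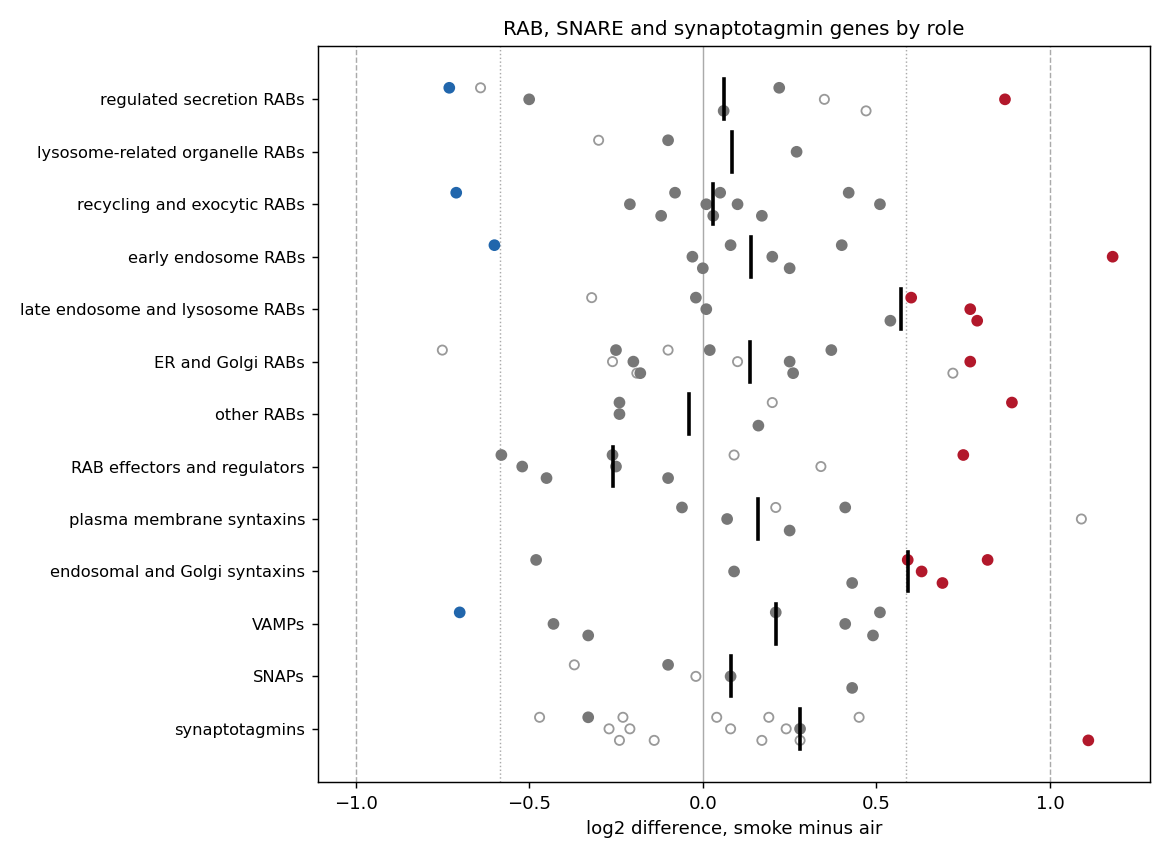
Log2 difference (smoke minus air, x axis) of the 106 genes, sorted into 13 groups by role. Filled points are above the level filter (red and blue past 1.5-fold), and open points are below it. Black bars are medians above the filter, dotted lines mark 1.5-fold and dashed lines 2-fold. The 6 late endosome and lysosome RABs and the 7 endosomal and Golgi syntaxins above the filter have medians of 0.57 and 0.59.

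Promoter sequences are given for Rab5b, Rab11a, Rab24 and Rab27a, which were picked by hand. Rab5b and Rab11a have large differences, and Rab24 and Rab27a have a promoter that holds a motif of the circadian clock. Other members with such a motif are not printed, and no promoter sequence was available for Syt7 or Vamp2. Clock motifs were searched because factors that bind them differed between the arrays. Dbp was at 8.05 for air and 16.48 for smoke, and Arntl (BMAL1) was at 9.91 for air and 6.29 for smoke. Nr1d1, a REV-ERB gene, was at 10.57 for air and 14.92 for smoke. The sample titles give no time of collection, so it cannot be compared between the arrays. RefSeq sequences (GRCm38.p6), from 250 bases before to 50 bases after a start site, were matched to 86 of the 106 genes, which had 114 such windows. Motifs were searched on both strands: the E-box CACGTG (bound by BMAL1 with CLOCK, and by other factors), the D-box TTATGTAA (bound by DBP and NFIL3) and AGGTCA, the core of the site of REV-ERB and ROR receptors. The last 2 bases of AGGTCA can also begin an E-box. Capitals mark a match. Rab5b (chr10:128696219-128696518, minus strand) and Rab11a (chr9:64737707-64738006, minus strand) hold none of the 3. Rab24 (chr13:55321931-55322230, minus strand) holds an E-box just past its start site, at base 253 of the window. A second start site of Rab27a (chr9:73063898-73064197, plus strand) holds an E-box at base 5, and its first window holds none.
Rab5b: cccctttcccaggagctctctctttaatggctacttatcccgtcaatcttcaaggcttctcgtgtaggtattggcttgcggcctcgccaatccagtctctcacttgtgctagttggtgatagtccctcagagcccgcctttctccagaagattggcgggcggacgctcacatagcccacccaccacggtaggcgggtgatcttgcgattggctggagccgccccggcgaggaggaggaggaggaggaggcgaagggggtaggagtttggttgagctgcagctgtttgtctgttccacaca
Rab24: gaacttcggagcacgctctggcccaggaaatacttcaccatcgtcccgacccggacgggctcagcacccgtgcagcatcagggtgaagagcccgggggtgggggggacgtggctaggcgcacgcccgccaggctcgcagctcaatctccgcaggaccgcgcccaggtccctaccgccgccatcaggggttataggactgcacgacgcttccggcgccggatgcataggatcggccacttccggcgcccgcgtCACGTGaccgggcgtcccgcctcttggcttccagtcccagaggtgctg
Rab27a, second start site: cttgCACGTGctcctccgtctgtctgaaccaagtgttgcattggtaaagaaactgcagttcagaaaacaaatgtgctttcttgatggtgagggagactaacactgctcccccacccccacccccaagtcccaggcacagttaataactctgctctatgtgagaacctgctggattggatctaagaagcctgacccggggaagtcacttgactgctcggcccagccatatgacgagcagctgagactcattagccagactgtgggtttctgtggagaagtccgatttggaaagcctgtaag
Rab11a: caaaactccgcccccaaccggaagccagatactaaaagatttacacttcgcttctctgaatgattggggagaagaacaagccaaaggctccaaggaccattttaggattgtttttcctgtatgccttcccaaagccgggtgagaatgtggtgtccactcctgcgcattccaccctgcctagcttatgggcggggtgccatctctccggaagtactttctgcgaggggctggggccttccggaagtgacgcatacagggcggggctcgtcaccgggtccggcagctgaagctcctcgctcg

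The E-box stood in 14 of the 114 windows (12.3%), beside 8.11% of windows of all genes in the value table and 7.15% of all 32851 RefSeq windows. The D-box stood in 1 window, that of Rab29 (0.877%, beside 0.836% of windows of genes in the table and 0.938% of all windows). AGGTCA stood in 16 windows (14.0%, beside 14.3% and 16.3%). The E-box genes did not share a direction. Of the 9 above the filter 5 were higher and 4 lower, from -0.58 for Rab3gap2 to 0.77 for Rab24, with a median of 0.08 beside 0.13 for the 54 without it. Of the 7 genes with AGGTCA above the filter 6 were higher, where 61.3% of the members and 54.3% of all genes were. Rab22a was equal, and the median of the 7 was 0.25 beside 0.08 for the 56 without it. The direction of other genes with AGGTCA was not examined. These letter matches are a description and are not binding sites.

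Among the SNAREs, Stx17, Stx8, Stx7 and Stx12, syntaxins of endosomes and the autophagosome, were past 1.5-fold on the higher side as deposited. The 7 endosomal and Golgi syntaxins, all above the filter, had a median difference of 0.59, and 0.46 to 0.58 under the 3 other scalings; 6 of 7 were higher, where 54.3% of all genes were, and 4 of them past 1.5-fold, where 14.5% of all genes were. Stx17, the syntaxin that autophagosomes recruit for fusion with lysosomes, was at 7.76 for air and 8.58 for smoke (0.82). Stx8 was at 8.47 and 9.16 (0.69), Stx7 at 9.17 and 9.80 (0.63) and Stx12, of recycling endosomes, at 9.58 and 10.17 (0.59). Of these, Stx17 alone stayed past 1.5-fold under each of the other 3 scalings. Stx16, a syntaxin of endosome to trans-Golgi transport, was the exception, at 8.57 and 8.09 (-0.48). Stx18, counted with this group, works in transport to the endoplasmic reticulum and was at 7.38 and 7.81.

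Known SNARE complexes, picked after the values had been seen, were read as sets. All 4 SNAREs picked for late endosome fusion (Stx7, Stx8, Vti1b and Vamp8) were higher, with log2 differences from 0.37 to 0.69. So were all 3 picked for autophagosome fusion (Stx17, Snap29 and Vamp8, 0.41 to 0.82), which share Vamp8 with the first set. Of all genes above the filter, 54.3% were higher. Vamp7, of lysosomal vesicles, was in neither set and was lower (-0.33). Because the choice was made with the values known, the shared signs are a description only. The complex of endosome to trans-Golgi transport was split, with Stx16 and Vamp4 lower (-0.48 and -0.43) and Stx6 and Vti1a higher (0.09 and 0.16). The signs within the first 2 sets held under quantile normalization, centring by level and the offset. Apart from Stx7, Stx8 and Stx17, these genes were within 1.5-fold.

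The SNAREs of the plasma membrane, where lamellar bodies and granules fuse, showed small differences. Stx2 was at 6.09 for air and 6.34 for smoke, Stx3, an apical syntaxin, at 7.54 and 7.95, Stx4a, a basolateral one, at 7.59 and 7.53, and Stx19 at 7.88 and 7.95. Snap23, the general SNAP of non-neuronal exocytosis, was at 15.00 and 14.90. Stx11, a syntaxin of granule release in immune cells and platelets, was at 3.28 and 4.37, a difference of 1.09 wholly below the filter. The neuronal Stx1a and Snap25 were below the filter on both arrays, at 3.08 and 3.29 and at 3.08 and 3.06.

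The VAMPs, which sit on the vesicle, differed in opposite directions. Vamp2, a secretory vesicle SNARE, was lower, at 11.34 for air and 10.64 for smoke (-0.70, or 1.62-fold lower, robust SD 0.39). Vamp4 and Vamp7, of Golgi and lysosomal vesicles, were also lower, by -0.43 and -0.33 on the log2 scale. Vamp3, the recycling endosome relative of Vamp2, was higher, at 6.69 and 7.18, as were Vamp8 (9.88 and 10.29), of late endosomes and granules, and Vamp1 (5.30 and 5.81). Of the 7, Vamp2 alone was past 1.5-fold, and the median was 0.21.

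Among the synaptotagmins, 13 of 16 were below the filter on both arrays, which includes the neuronal calcium sensors Syt1 and Syt2. Syt7, a high-affinity calcium sensor of lysosome and granule exocytosis, was the exception in size, at 7.82 for air and 8.93 for smoke. Its log2 difference of 1.11 (2.16-fold, robust SD 0.47) fell to 0.99, just under 2-fold, when differences were centred by level. Syt15 and Syt12 were the other 2 above the filter, at 5.13 and 5.41 and at 6.40 and 6.07. Few synaptotagmins were thus above the filter on these arrays, and of those Syt7 differed most.

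**Figure D3:**
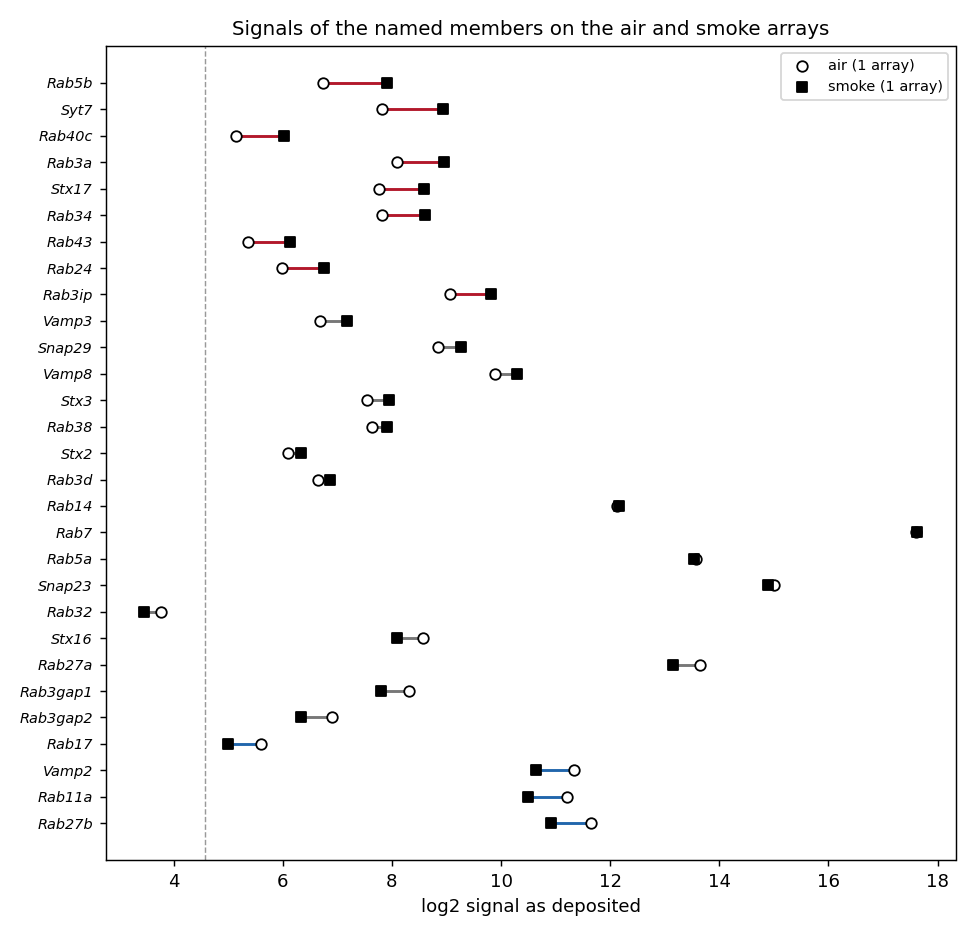
Log2 signals of the 29 genes selected by rule, on the air array (open circles) and the smoke array (filled squares), ordered by difference; line colour marks 1.5-fold higher (red), lower (blue) or less (grey), and the dashed line is the level filter. Rab5b and Syt7 are at the top, Rab27b, Rab11a and Vamp2 at the bottom, and the values of Rab14, Rab7, Rab5a and Snap23 nearly coincide.

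The partners of these proteins were read from 6 lists drawn up by function. Past 1.5-fold, 4 of 11 other SNAREs above the filter were higher and 0 lower (median 0.42), where 14.5% and 9.19% of all genes were. Bet1l, among the 11 but within 1.5-fold, reached the filter only on the smoke array (4.21 for air and 4.70 for smoke). Bnip1 (Sec20), a SNARE of retrograde transport to the endoplasmic reticulum, was at 5.51 for air and 6.91 for smoke (1.40, and 1.15 with the offset), and Gosr1, a Golgi SNARE, was at 8.20 and 9.13. Bnip1 works with Stx18, which was at 7.38 and 7.81, and with Use1 and Sec22b, which had differences of 0.42 and 0.06. Ykt6, a SNARE of Golgi and autophagosome fusion, was at 6.66 and 7.51.

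Past 1.5-fold, 3 of 17 SNARE regulators above the filter were higher (17.6%, beside 14.5% of all genes) and 0 lower, with a median of 0.29. Stxbp2 (Munc18-2), which binds syntaxins 2, 3 and 11 in epithelial and immune secretion, was at 11.50 for air and 12.73 for smoke, a difference of 1.23. Snapin, a SNARE-binding protein that also belongs to a lysosome positioning complex, was at 7.65 and 8.55 (0.90). Nsf and Napa, which take spent SNARE complexes apart, were higher by 0.57 and 0.43. The priming factors Unc13b and Unc13d were at 7.13 and 6.98 and at 6.55 and 6.66.

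RAB effectors were balanced, with 9 higher and 9 lower of 18 above the filter (median -0.02). Rbsn, among the 9 lower, reached the filter only on the air array (4.80 for air and 4.55 for smoke). Mlph, melanophilin, the link from RAB27A to myosin Va, was at 5.73 for air and 6.98 for smoke (1.25), and Myo5a, that motor, was at 4.75 and 5.73 (0.98, and 0.69 with the offset). Rab27a itself was lower, as given above, as was Rph3al, another effector of RAB27 and RAB3 (-0.59). Sytl2 was at 8.63 and 8.57. Eea1, the RAB5 effector that tethers early endosomes, was at 8.35 and 7.79 (-0.56).

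Past 1.5-fold, 4 of 20 RAB regulators above the filter were higher and 2 lower, shares close to the 14.5% and 9.19% of all genes. Madd and Chml are among these 6 and reached the filter only on the array where they are high. Madd, an exchange factor for RAB3 and RAB27, was under the filter for air, at 4.30, and at 5.48 for smoke (1.18, and 0.76 with the offset). Tbc1d15, a GTPase-activating protein for RAB7, was at 6.64 and 7.47, and Rabgef1, an exchange factor for RAB5, at 11.01 and 11.71. On the lower side were Rin3, another RAB5 exchange factor (-0.62), and Chml, an escort protein for RAB lipidation, at 5.06 for air and below the filter for smoke, at 4.44 (-0.62 as deposited, and -0.39 to -0.58 under the 3 other scalings, short of 1.5-fold).

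Tethers, which hold vesicles before fusion, were the exocyst at the plasma membrane and the HOPS and CORVET complexes of endosomes. All 16 were above the filter, with 3 at least 1.5-fold higher (18.8%, beside 14.5% of all genes) and 0 lower, and a median of 0.20. Vps39, a HOPS subunit, was at 9.94 and 10.88, Vps8, a CORVET subunit, at 6.34 and 7.27, and Exoc7 at 5.21 and 6.03. The other 8 exocyst subunits were within 1.5-fold, 4 higher (Exoc1, Exoc2, Exoc3 and Exoc4) and 4 lower (Exoc5, Exoc6, Exoc6b and Exoc8), from -0.45 to 0.41. For genes of lysosome-related organelle formation, 2 of 11 above the filter were higher past 1.5-fold (18.2%, beside 14.5% of all genes), Lyst (7.58 and 8.52) and Hps5 (6.03 and 6.84), and 0 were lower. Their median was 0.05, and -0.05 under quantile normalization. Hps1 and Hps4 encode the exchange factor for RAB32 and RAB38; Hps1 was below the filter and Hps4 was at 5.54 and 5.96.

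**Figure D4:**
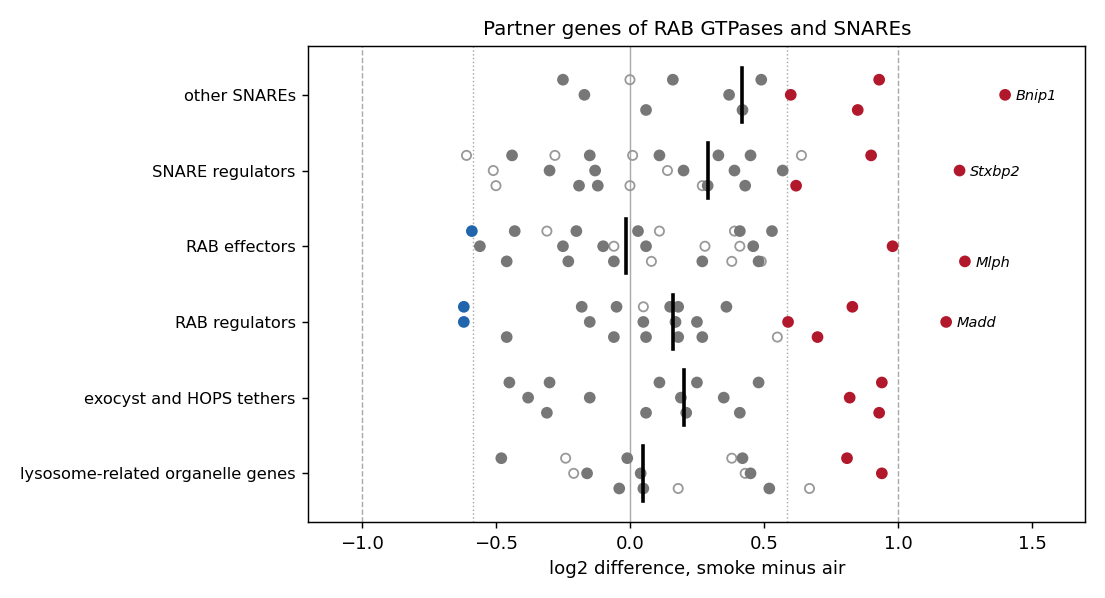
Log2 difference (smoke minus air, x axis) of partner genes in 6 lists; filled points are above the level filter (red and blue past 1.5-fold), open points below it, and black bars are medians above the filter. Genes past 2-fold are named: Bnip1, Stxbp2, Mlph and Madd, all higher in smoke. They come 1 each from 11 other SNAREs, 17 SNARE regulators, 18 RAB effectors and 20 RAB regulators that passed the filter. The 16 tethers and 11 lysosome-related organelle genes had none. For comparison, 3.94% of all genes lay past 2-fold on the higher side. Madd reached the filter only on the smoke array, and its difference fell to 0.76 with the offset.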

How the data were processed

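The deposited table holds 1 value per platform identifier (probe) and array, 22206 in all, read here as log2 signal; per the labels, biotinylated cDNA was hybridised to Clariom S Mouse arrays. The authors used Transcriptome Analysis Console, per the submitters' processing notes; settings, normalization and build are not stated there. The log2 scale was inferred from the range, 1.55 to 19.93, and centring stays unknown (medians 4.61 in air and 4.53 in smoke). The direction follows from the sample labels.

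Of the probes, 19572 carried 1 symbol in the platform's gene table, 0 several and 2634 none. Probes of a gene were averaged (55 genes); all 106 members matched RefSeq by gene number. Counts used genes whose brighter array reached 4.57, leaving out 16 genes that both arrays put at the upper limit. Calculations used Python 3.11.15, pandas 2.3.3 and numpy 2.4.6, and were tested on simulated data. No test across samples was possible, and the number of arrays limits the precision.

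The members and lists were chosen with earlier results of these data known. Named members are those past 2-fold, the 8 highest and 8 lowest above the filter, the largest difference in each family and role, and 15 genes of lamellar body traffic; of each partner list, the 2 largest. Other genes were named after their values were seen. Alternatives were quantile normalization, centring by level in 10 bins, an offset of 16, other level filters, folds of 1.5 and 3, the mean, and leaving out effectors, regulators and Snap91.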

Additional observations from a re-analysis of the deposited data

How the results depend on the processing

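The count of members at least 2-fold higher in smoke, 2, stayed at 2 under quantile normalization, with the offset, with a filter on the mean of both arrays or at the 75th percentile, and without effectors, regulators and Snap91. It was 3 without a level filter, with Stx11 added. It was 1 when differences were centred by level, since Syt7 fell just under 2-fold. At 1.5-fold it was 13 and at 3-fold 0. The count at least 2-fold lower was 0 under all of these settings except at 1.5-fold, where it was 4. The median of the members, 0.08, ran from 0.00 under quantile normalization to 0.13 without effectors, regulators and Snap91, and the mean was also 0.13. For the 29 members selected by rule, all 87 values under the 3 other scalings moved by less than the robust SD of genes of like level. Signs turned only for Rab7 and Rab14. Small moves were built in, since centring shifts a value by at most 0.12 and the lowest robust SD is 0.30. The scalings rework the same 2 arrays, so their agreement does not measure how reliable a difference is. Of the 1.5-fold calls, 9 of 13 on the higher side and 3 of 4 on the lower side held under all 3 scalings. Calls gained on the lower side were 4 under quantile normalization (Rab27a, Rab3gap1, Rab3gap2 and Stx16), 3 under centring (the last 3 of these) and 0 with the offset; Rab7b was gained on the higher side under the first 2. No paired analysis was possible because each group has 1 array and the labels give no replicate numbers. Leaving out a replicate was not possible either. Arrays, animals and exposure cannot be told apart with 1 array per group, and genes near the level filter have differences that shrink when an offset is added.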
